A study of Cavia porcellus with 34 samples.

Results

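Potassium channel genes, taken as every gene whose upper-case symbol begins with KCN, were read from the RNA-seq tables of the guinea pig paraventricular nucleus (PVN). There were 73 such genes among the 12592 genes of the 3 tables, 72 in each table and 71 in all 3, and they fell under 17 subfamily letters. The study treated pregnant guinea pigs (F0) with the synthetic glucocorticoid betamethasone (sGC) or with saline vehicle (Veh) and bred their offspring on. PVN punches came from female offspring of the paternal line at postnatal day 40. Only the F1 sGC animals were themselves exposed in utero to the drug given to the dam. The F2 and F3 sGC animals descended from F1 males exposed in utero, and the Veh animals came from the saline line. F1 and F2 were each represented by 5 Veh and 5 sGC animals, and F3 by 6 of each, none of them genetically modified. Per the methods, the punch could hold hypothalamus adjoining the PVN, and sample numbers stood for independent litters.

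Potassium channels let potassium leave the cell and so set the resting potential, end each action potential and limit firing rate. Pore-forming subunits are grouped as voltage-gated (the KCNA, KCNB, KCNC, KCND, KCNH and KCNQ genes, with the silent modifiers KCNF, KCNG, KCNS and KCNV), calcium- or sodium-activated (KCNM, KCNN and KCNT), inwardly rectifying (KCNJ) and two-pore leak channels (KCNK). KCNAB, KCNE, KCNIP and KCNMB genes encode auxiliary subunits. In PVN neuroendocrine neurons these currents shape the spike pattern that governs peptide release, and in glia KCNJ10 channels clear potassium from the extracellular space.

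Values are counts per gene that the authors normalized by residuals and rounded, divided here by a size factor per animal (scaled values). Deposited totals per animal, in units of 1 M (mega), were 15.57 to 21.94 M in F1, 15.65 to 19.44 M in F2 and 18.69 to 18.98 M in F3, and within-group Pearson correlations of log2 values ran from 0.956 to 0.997. Effects are log2 fold changes, sGC minus Veh, on the log2(value + 1) scale, from limma fitted over all genes, with Benjamini-Hochberg adjusted p and a threshold of 0.05. The tables were normalized apart, so no level was compared between generations, and no level was compared between genes. PVN neuroendocrine markers were present in all generations, but in F1 their sum ran from 118800 to 234300 in Veh and from 27980 to 188000 in sGC, and all 9 tested markers had a negative fold change (median -0.76, 1 past the threshold). In F2 the sum ran from 63050 to 123600 in Veh and from 90070 to 213600 in sGC, with 8 of the 9 markers positive (median 0.36, none past the threshold, 5 at an unadjusted p under 0.05). In F3 it ran from 22690 to 62320 in Veh and from 30050 to 47320 in sGC, with 4 of the 9 positive (median -0.01, none past the threshold). In bulk tissue, fewer cells of a type and less RNA per cell cannot be told apart.

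In F1, 12 of the 67 potassium channel genes tested passed the adjusted threshold. KCNH5, KCNN3, KCNMA1, KCNK3, KCNJ3 and KCNA3 were among the 8 that were higher in sGC, and KCNMB4, KCNC2, KCNIP1 and KCNJ9 were lower. That was 17.9% of the genes tested, against 17.3% of all 11870 genes, so as a family they passed about as often as genes at large. The share higher in sGC was 11.9% against 8.48% of all genes, and the share lower was 5.97% against 8.86%. At an unadjusted p under 0.05, 23 (34.3%) passed, against 33% of all genes. The groups did not overlap for 10 (14.9%), against 14.2%.

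The fold changes of the family leaned upward in F1: 46 of 67 (68.7%) were positive, with a median of 0.09, against 50.7% and 0.003 over all genes. The median was positive for KCNA (0.28), KCNK (0.18), KCNE (0.16), KCNN (0.16) and KCNJ (0.14). It was negative for KCNH (-0.07), and for KCNF, whose single gene KCNF1 had -0.50 ± 0.21 (SE), adjusted p = 0.121. On the deposited scale, without size factors, 55 of 67 (82.1%) were positive against 63.8% of all genes, and the medians of the KCNG, KCNI, KCNM, KCNS and KCNV letters, which were negative after scaling, turned positive. On that scale only KCNH5 passed, so that the split of higher to lower calls moved from 8 and 4 to 1 and 0. Of all genes 0.657% then passed, and 92.3% of those were higher in sGC, against 48.9% after scaling.

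**Figure D1:**
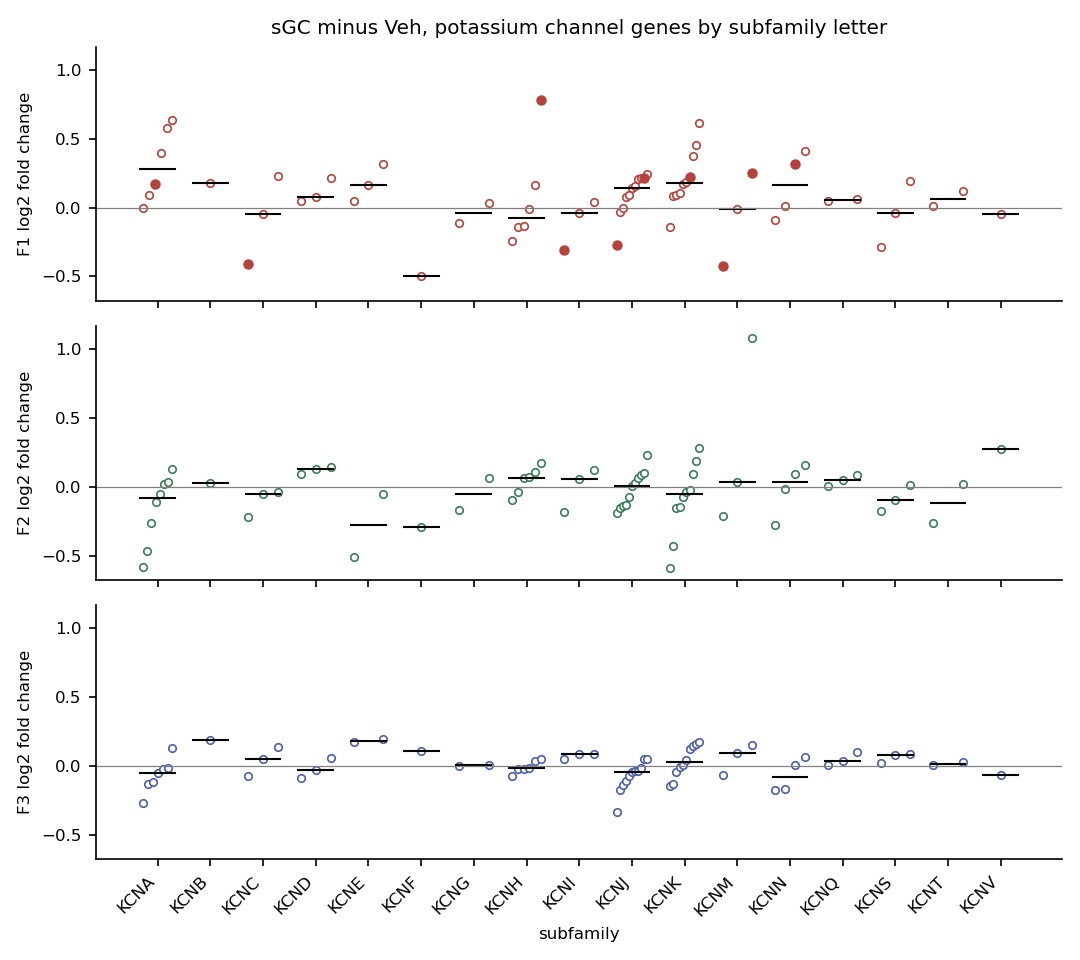
Log2 fold change of sGC minus Veh (vertical axis) for tested potassium channel genes, by subfamily letter (horizontal axis), in F1, F2 and F3. Each point is 1 gene, filled where its adjusted p was under 0.05, and the black line is the median of the points shown. The 10 filled points are all in F1, where fold changes ran from -0.50 to 0.78, and in F3 the points lie between -0.33 and 0.20.

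The residual normalization had left 1 direction of variation among the F1 animals with almost no spread. With that direction as a covariate, 6 of the 12 still passed, among them KCNC2, KCNH5, KCNIP1, KCNMA1 and KCNMB4, and 11.3% of all genes did. KCNC2, KCNH5, KCNIP1 and KCNMB4 passed in each of the 10 fits that left out 1 animal. The count of 12 was 5 without Veh animal SGM11 and 6 without Veh animal SGM7, and 8 to 10 without any other.

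KCNH5, a voltage-gated channel of the ether-a-go-go group, showed the largest fold change of the family in F1. The Veh animals read 68.4, 84.8, 76.4, 78.8 and 81.3 and the sGC animals 127, 163, 145, 125 and 117. Every sGC animal was above every Veh animal. KCNH5 rose 1.74-fold, by 0.78 ± 0.11 (SE) on the log2 scale (adjusted p = 0.00213), and was the only member that passed under each alternative processing tried in F1, with adjusted p from 0.00173 to 0.0324.

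The other genes of the KCNH group did not pass in F1. KCNH1, from the same ether-a-go-go branch, had 0.16 ± 0.11 (SE), the erg channel gene KCNH2 had -0.13 ± 0.07 and KCNH7 had -0.01 ± 0.04, with adjusted p of 0.318, 0.230 and 0.856. The sign of KCNH7 turned positive on the deposited scale.

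The KCNC genes encode the fast delayed rectifiers that let neurons fire at high rates. In F1, KCNC2 read 2607, 2266, 2558, 2770 and 2586 in the Veh animals and 1933, 1952, 2097, 1891 and 1761 in the sGC animals. All sGC animals were below all Veh animals, and KCNC2 fell to 0.753 of Veh (log2 fold change -0.41 ± 0.06 SE, adjusted p = 0.00219).

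Of the same group, KCNC1 read 2216 to 2724 in Veh and 2732 to 3498 in sGC, without overlap, with 0.23 ± 0.07 (SE) and adjusted p = 0.0507. The gene SERGEF, which overlaps KCNC1 in the RefSeq annotation of another assembly, had 0.20 in F1. KCNC4 had -0.05 ± 0.10 (adjusted p = 0.787), positive on the deposited scale.

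KCNB2, a delayed rectifier, read 201 to 233 in Veh and 208 to 276 in sGC (0.18 ± 0.08 SE, adjusted p = 0.164).

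KCNMA1 and KCNMB4, the pore and the neuronal auxiliary subunit of the large-conductance calcium-activated (BK) channel, changed in opposite directions in F1. KCNMA1 read 1806, 1797, 1885, 1972 and 2007 in Veh and 2211, 2542, 2309, 2203 and 1999 in sGC, so that 1 sGC animal lay within the Veh range. It rose 1.19-fold (0.25 ± 0.06 SE, adjusted p = 0.0207). It did not pass without Veh animal SGM3 or SGM11, where adjusted p reached 0.0553.

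KCNMB4, which slows BK gating and alters its calcium sensitivity, read 323, 328, 329, 307 and 356 in Veh and 238, 288, 220, 265 and 220 in sGC. All sGC animals were lower, and KCNMB4 fell to 0.750 of Veh (-0.42 ± 0.09 SE, adjusted p = 0.00971).

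KCNIP1 encodes a calcium-binding partner of the KCND (A-type) channels. It read 1338, 1278, 1314, 1437 and 1258 in Veh and 939, 1161, 1183, 1085 and 1007 in sGC. The groups did not overlap, and KCNIP1 fell to 0.811 of Veh (-0.31 ± 0.07 SE, adjusted p = 0.0131). The smooth-muscle BK subunit gene KCNMB1 lies within the span of KCNIP1 in the RefSeq annotation of another assembly, and the library kit does not mark strand. Reads from the overlap could not be told apart, so both genes are uncertain. KCNMB1 itself had -0.01 ± 0.32 in F1, positive on the deposited scale.

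The KCND pore genes that KCNIP proteins bind did not pass: KCND2 had 0.08 ± 0.08 and KCND3 had 0.05 ± 0.04, with adjusted p of 0.536 and 0.419. KCNIP2 had -0.04 ± 0.05 and KCNIP3 had 0.04 ± 0.07, with adjusted p of 0.595 and 0.726, and KCNIP2 turned positive on the deposited scale.

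Of the G protein-gated inward rectifier (GIRK) genes, KCNJ3 was higher and KCNJ9 lower in F1. GIRK channels open when inhibitory receptors release G protein subunits. KCNJ3 read 702, 744, 757, 813 and 798 in Veh and 851, 971, 930, 818 and 869 in sGC (1.16-fold, 0.22 ± 0.06 SE, adjusted p = 0.0306). KCNJ9 read 2566, 2752, 2783, 3404 and 2684 in Veh and 2105, 2513, 2404, 2382 and 2328 in sGC (0.827 of Veh, -0.27 ± 0.07 SE, adjusted p = 0.0319). Neither pair of groups overlapped. Each of these calls held in 5 of the 10 fits that left out 1 animal, with adjusted p up to 0.0768 for KCNJ3 and up to 0.0691 for KCNJ9. Both were lost without Veh animals SGM7 and SGM11. KCNJ6, the other common GIRK pore in brain, had 0.24 ± 0.10 (adjusted p = 0.104).

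A further 3 calls in F1 stood close to the threshold. KCNK3, an acid-sensitive leak channel, rose 1.17-fold from 1129 to 1291 in Veh to 1293 to 1635 in sGC (0.22 ± 0.07 SE, adjusted p = 0.0417), and held in 4 of 10 fits without 1 animal. KCNN3, a small-conductance calcium-activated (SK) channel of the afterhyperpolarization, rose 1.26-fold from 810 to 845 in Veh to 841 to 1254 in sGC (0.31 ± 0.10 SE, adjusted p = 0.0486), and held in 2 of 10. KCNA3 rose 1.13-fold from 2007 to 2296 in Veh to 2261 to 2707 in sGC (0.17 ± 0.05 SE, adjusted p = 0.0488), and held in 1 of 10. Adjusted p reached 0.0930, 0.101 and 0.101 in these fits. KCNK3, KCNN3 and KCNA3 all failed without Veh animals SGM7, SGM11, SGM15 or SGM19 or without sGC animal SGM12. KCNN3 also failed when values were scaled to the sample total (adjusted p = 0.0526).

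**Figure D2:**
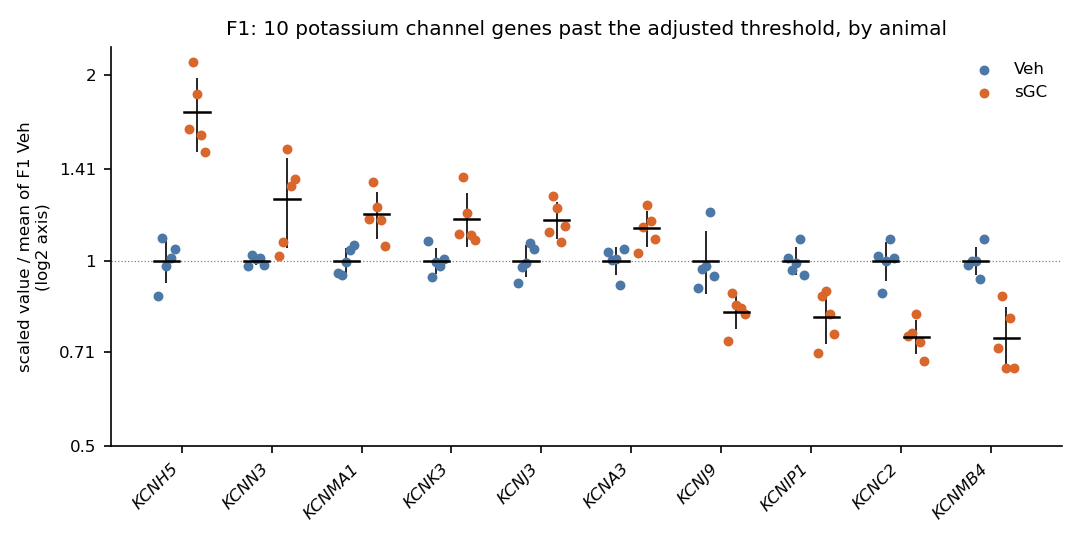
Scaled value of each F1 animal divided by the mean of the 5 Veh animals (log2 axis) for 10 potassium channel genes past the adjusted threshold, in order of fold change. Points are animals, horizontal bars are means and vertical bars are SD. KCNH5 stands apart at 1.74 times Veh, and the ranges of KCNA3, KCNN3 and KCNMA1 overlap between the groups.

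Several genes had larger fold changes than these in F1 but varied more between animals. KCNA1, a voltage-gated channel concentrated beside the nodes of myelinated axons, read 536, 443, 568, 600 and 782 in Veh and 1016, 1632, 629, 532 and 1028 in sGC. Its groups overlapped, and the fold change was 0.63 ± 0.27 (SE), adjusted p = 0.129 in limma. The study's own edgeR test named KCNA1 as changed in both F1 and F2. Its usual partner KCNA2 had 0.39 ± 0.13 (adjusted p = 0.0637), and the auxiliary subunit genes KCNAB1 and KCNAB2 had 0.58 ± 0.21 (adjusted p = 0.0874) and 0.09 ± 0.15 (adjusted p = 0.729). KCNA2 passed without sGC animal SGM12 (adjusted p = 0.0368), and KCNAB1 without Veh animal SGM19 (adjusted p = 0.0390).

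KCNK2, a mechanically and lipid-gated leak channel, read 462 to 645 in Veh, and in sGC 1556 in animal SGM4 but 582 to 679 in the other 4. Animal SGM4 also had the highest summed level of the vascular mural markers, 14120, where the other sGC animals had 5076 to 6820 and the Veh animals 4450 to 4819. The part of mural cells in the KCNK2 value was not tested.

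The channels of the M-current, which damps repetitive firing, showed small estimates in F1. KCNQ3 had 0.06 ± 0.07 (SE) and KCNQ5 0.05 ± 0.11, with adjusted p of 0.607 and 0.814. The SK genes KCNN1 and KCNN2 had 0.41 ± 0.19 and 0.01 ± 0.11 (adjusted p = 0.151 and 0.969). The sodium-activated KCNT1 and KCNT2 had 0.12 ± 0.09 and 0.01 ± 0.10 (adjusted p = 0.394 and 0.964).

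Among the remaining inward rectifiers, the glial channel gene KCNJ10 had 0.14 ± 0.05 (SE) in F1 with adjusted p = 0.100, and 0.0394 without Veh animal SGM3. Its partner KCNJ16 had 0.21 ± 0.16 (adjusted p = 0.410). KCNJ11 and KCNJ8, the pores of ATP-sensitive channels, had -0.03 ± 0.17 and 0.08 ± 0.13 (adjusted p = 0.926 and 0.702), KCNJ11 being positive on the deposited scale. The strong inward rectifiers KCNJ2 and KCNJ4 had 0.09 ± 0.11 and 0.16 ± 0.15 (adjusted p = 0.595 and 0.517). Among leak channels, KCNK9, which can pair with KCNK3, had 0.37 ± 0.16, KCNK1 0.19 ± 0.13 and KCNK10 0.10 ± 0.08, with adjusted p of 0.124, 0.364 and 0.411.

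Marker lists of other cells also had medians away from 0 in F1, with few markers past the threshold. All 11 tested oligodendrocyte markers had a positive fold change (median 0.19, none past the threshold). So did all 8 endothelial markers (median 0.30) and all 5 mural markers (median 0.39), again with none past it. Among sGC animals the summed endothelial level was 13330 in SGM4 and 7265 to 11780 in the others, against 7189 to 8025 in Veh. Of the 9 neuron markers 5 were positive (median 0.14, 1 past the threshold, lower), of the 10 astrocyte markers 8 (median 0.14, 1 past it, higher), of the 7 microglia markers 4 (median 0.25, 1 past it, higher) and of the 6 thalamus markers 3 (median -0.55, none past it). The summed thalamus level was 9819 in Veh animal SGM15, against 2360 to 3177 in the other Veh animals and 2205 to 2802 in sGC, and SGM15 had the highest F1 reading of KCNC2, KCNIP1 and KCNJ9. Those 3 calls held without SGM15 (adjusted p = 0.00445, 0.0254 and 0.0288). No list had a marker at 0 in every sample. The summed oligodendrocyte level was highest in sGC animal SGM8, at 106100 against 35620 to 63100 in Veh, and SGM8 also had the highest reading of KCNH5, KCNJ3, KCNK3 and KCNMA1 among the F1 animals. Without SGM8, KCNJ3 and KCNA3 did not pass (adjusted p = 0.0541 and 0.0782), whereas KCNH5, KCNK3 and KCNMA1 were among the 10 potassium channel genes that did. The part of cell composition in these values was not tested.

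In F2, no potassium channel gene of the 70 tested passed the adjusted threshold in limma, and neither did any of the 11959 genes (0%). The study's own edgeR test did call genes in F2, KCNA1 among them, so the count of 0 belongs to the limma fit. At an unadjusted p under 0.05, 6 genes (8.57%) passed against 12.8% of all genes, and the groups did not overlap for 3 (4.29%) against 3.21%. Without Veh animal SGM22 the unadjusted count was 13. The fold changes were centred near 0, with a median of -0.02 against -0.002 over all genes. On the deposited scale 25.4% of the members were positive, against 24.5% of all genes, and the medians of the KCNH, KCNI, KCNJ, KCNM, KCNN and KCNQ letters turned negative.

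KCNK1 had the smallest p of the family in F2. This gene encodes a weak leak channel found in neurons and glia. The Veh animals read 1266, 1589, 1303, 1228 and 1243 and the sGC animals 979, 957, 1092, 903 and 965. Every sGC animal was below every Veh animal, at 0.738 of Veh (-0.43 ± 0.08 SE, adjusted p = 0.0597). Over 16 alternative fits the adjusted p ran from 0.0524 to 0.173.

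KCNA1 in F2 read 852, 1460, 994, 1146 and 1042 in Veh and 683, 698, 773, 591 and 907 in sGC. The ranges overlapped by 1 animal of each group, and the estimate was -0.58 ± 0.14 (SE), adjusted p = 0.147 in limma. KCNA1 did not pass here, whereas the study's edgeR test called it in F2. KCNK13, a leak channel prominent in microglia, read 244, 469, 308, 291 and 267 in Veh and 211, 188, 241, 161 and 226 in sGC. Its groups did not overlap, and the estimate was -0.59 ± 0.17 (SE), adjusted p = 0.187. KCNH3, the third gene whose groups did not overlap, had 0.17 ± 0.06 (adjusted p = 0.266), and KCNT2 and KCNV1 had -0.26 ± 0.11 and 0.27 ± 0.09 (adjusted p = 0.349 and 0.224). The gene MCRS1, which overlaps KCNH3 in the RefSeq annotation of another assembly, had 0.105 in F2. In F1 MCRS1 had -0.131, beside -0.24 for KCNH3.

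The myelin markers were lower in the same sGC animals of F2. All 12 oligodendrocyte markers had a negative fold change in F2 (median -0.69, none past the adjusted threshold, 11 at an unadjusted p under 0.05), and their sum was 138800 to 260900 in Veh and 81880 to 116400 in sGC. Veh animal SGM23, which had the highest sum, also had the highest KCNA1, KCNK1 and KCNK13 readings of the F2 animals. All 6 tested microglia markers had a negative fold change too (median -0.15), as did all 8 endothelial and all 5 mural markers (medians -0.27 and -0.25), none past the threshold. In F3, where the sums were 55840 to 79240 and 58510 to 82420, KCNA1 had -0.27 ± 0.16 (SE), KCNK1 -0.04 ± 0.05 and KCNK13 0.16 ± 0.07, with adjusted p of 0.507, 0.756 and 0.356. The part of oligodendrocytes in the KCNA1, KCNK1 and KCNK13 values was not tested.

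**Figure D3:**
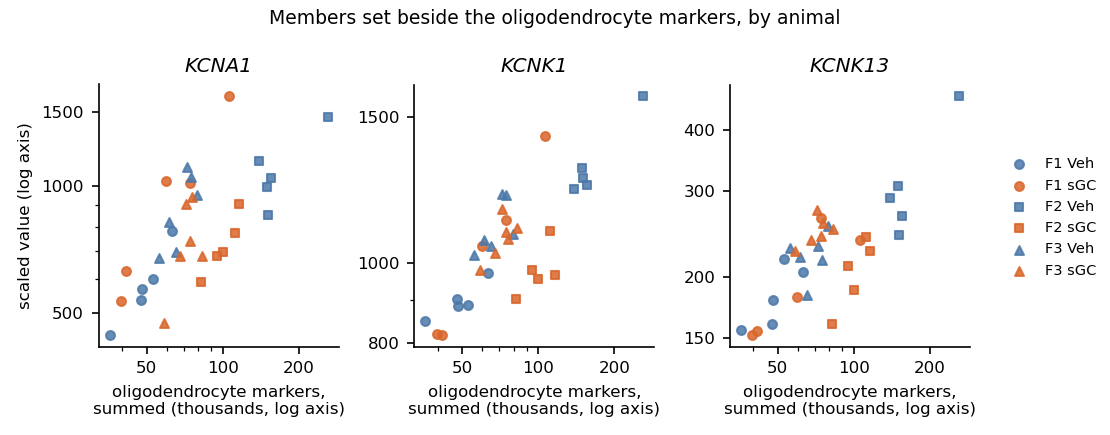
Scaled values of KCNA1, KCNK1 and KCNK13 (vertical, log axis) set beside the summed oligodendrocyte markers (horizontal, in units of 1 k, log axis), 1 point per animal, by generation and group. The tables were normalized apart and the F1 and F3 sums hold 11 markers and the F2 sum 12, so points are to be compared within a generation. Within F2 the 5 sGC animals lie lower on both axes than the 5 Veh animals except where KCNA1 overlaps.

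KCNMB1 had the largest fold change of any member in any generation, 1.08 ± 0.54 (SE) in F2, and did not pass (adjusted p = 0.446). It is named here after its values were seen. Its Veh animals read 2865, 1459, 966, 205 and 1001 and its sGC animals 1719, 1940, 2674, 1656 and 2394. The Veh animals spanned a wide range, with SGM28 far below the others. That animal had the highest F2 readings of KCNC2 (4815), KCNJ3 (1144) and other members, among them KCNA2 (5490), KCNC1 (6741), KCNJ9 (3829) and KCNQ3 (2388). Not all members were high in SGM28, whose KCNK1 (1228) and KCNJ4 (193) were the lowest of the Veh animals. It also had the highest summed thalamus marker level in F2, 7140 against 1367 to 5682 in the other animals, whose part in these readings was not tested. KCNIP1, whose span holds KCNMB1, read 1138 to 1445 in the same Veh animals.

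None of the genes called in F1 passed in F2. KCNH5 had 0.06 ± 0.20 (SE), KCNMA1 0.03 ± 0.10, KCNN3 0.09 ± 0.08 and KCNK3 -0.08 ± 0.06, with adjusted p from 0.690 to 0.944. On the deposited scale the estimates of KCNH5 and KCNMA1 in F2 changed sign. KCNMB4 had -0.21 ± 0.11 (adjusted p = 0.495), KCNC2 -0.22 ± 0.24 (0.788), KCNJ9 -0.14 ± 0.14 (0.744), KCNIP1 0.12 ± 0.07 (0.571), KCNJ3 -0.13 ± 0.16 (0.819) and KCNA3 0.13 ± 0.10 (0.650).

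Some of the remaining neuronal and glial channels of F2 lay close to 0. The M-current genes KCNQ3 and KCNQ5 had 0.05 ± 0.15 (SE) and 0.08 ± 0.09, KCNQ3 being negative on the deposited scale. The A-type genes KCND2 and KCND3 had 0.13 ± 0.10 and 0.09 ± 0.07, and the GIRK gene KCNJ6 had 0.08 ± 0.10. The glial KCNJ10 and KCNJ16 had 0.03 ± 0.08 and -0.08 ± 0.07, KCNJ10 being negative on the deposited scale. The adjusted p of these genes ran from 0.647 to 0.944. Others had larger estimates in F2, among them KCNN1 (-0.27), KCNAB1 (-0.27), KCNJ8 (-0.19), KCNIP3 (-0.19) and KCNK10 (0.19), and none of them passed.

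In F3, no potassium channel gene of the 68 tested passed in limma, and 5 of all 11865 genes (0.0421%) did. The study's own edgeR test called more genes than that in F3. At an unadjusted p under 0.05, 15 genes (22.1%) passed, against 13.2% of all genes. Of these, 5 had a negative fold change among the voltage-gated pores and their partners or SK channels (KCNA2, KCNAB2, KCNC1, KCNN1 and KCNN2), and 5 others were negative among the KCNJ and KCNK genes (KCNJ4, KCNJ6, KCNJ9, KCNJ14 and KCNK3). The other 5, KCNB2, KCNE4, KCNIP2, KCNK12 and KCNK13, were positive. The count was 11 in the first sequencing batch alone, 12 with batch as a covariate and 9 with the removed directions as covariates. It was also 9 without sGC animal SGM6.

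The GIRK genes KCNJ6 and KCNJ9 were the 2 whose groups did not overlap in F3 (2.94%, against 1.26% of all genes). KCNJ6 read 778 (lowest), 817 (median) and 892 (highest) in Veh and 717, 755 and 774 in sGC, which gave -0.14 ± 0.04 (SE), adjusted p = 0.157. KCNJ9 read 1994, 2041 and 2153 in Veh and 1772, 1925 and 1986 in sGC, which gave -0.11 ± 0.03 (adjusted p = 0.174). The sGC means were 0.906 and 0.928 of the Veh means, and neither gene passed. The third GIRK gene, KCNJ3, read 810 to 1048 in Veh and 759 to 1097 in sGC (-0.04 ± 0.09, adjusted p = 0.902).

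The second sequencing batch held only sGC animals among those tested. In the first batch alone KCNJ6 had -0.14 ± 0.05 (SE) and KCNJ9 -0.09 ± 0.03, with adjusted p of 0.368 and 0.393. KCNK3 read 863, 934 and 979 in Veh and 758, 839 and 899 in sGC, with overlap (-0.15 ± 0.05, adjusted p = 0.208), and -0.13 ± 0.04 in the first batch alone (adjusted p = 0.375).

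**Figure D4:**
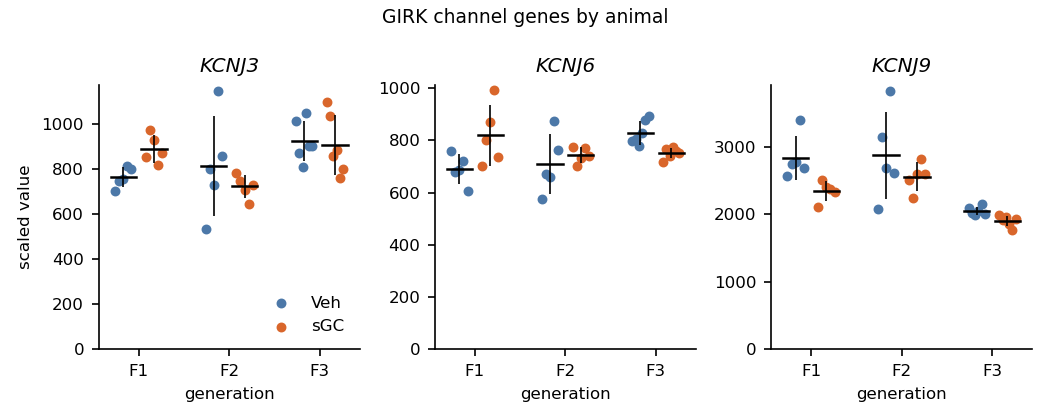
Scaled values of the GIRK genes KCNJ3, KCNJ6 and KCNJ9 (vertical axis, from 0) in each animal by generation (horizontal axis). Points are animals, horizontal bars are means and vertical bars are SD. KCNJ9 has a lower sGC mean in each generation, with no overlap in F1 and F3, and KCNJ6 has a higher sGC mean in F1 (820 against 690) and a lower one in F3 (752 against 830).

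None of the genes called in F1 passed in F3 either. KCNH5 had -0.03 ± 0.14 (SE), KCNN3 0.01 ± 0.07, KCNA3 -0.03 ± 0.05, KCNC2 0.05 ± 0.09 and KCNIP1 0.05 ± 0.06. KCNMA1 had -0.07 ± 0.04 and KCNMB4 0.09 ± 0.05, with adjusted p of 0.514 and 0.475. The M-current genes KCNQ3 and KCNQ5 had 0.01 ± 0.07 and 0.04 ± 0.05, and the glial KCNJ10 had -0.04 ± 0.05. KCNJ4 had the most negative estimate in F3, -0.33 ± 0.14, from 239 to 419 in Veh and 190 to 305 in sGC (adjusted p = 0.351). The normalized values of F3 varied least between animals: the median residual SD of log2 values over all genes was 0.0823, against 0.12 in F1 and 0.131 in F2. The authors had corrected F3 between sequencing batches, and 2 directions were removed in F3, against 1 in F1 and 1 in F2. The part of this processing in the lower spread was not tested.

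The effect of sGC was then compared between generations in 1 model over all 32 animals, in which each generation has its own controls. Of the 65 potassium channel genes tested in all 3 generations, 10 (15.4%) had an F1 effect that differed from F2, against 14.3% of all genes. For F1 against F3 it was 11 (16.9%), against 17.6%. For F2 against F3 it was 0, against 0.158% of all genes. At an unadjusted p under 0.05, 8 genes differed between F2 and F3 (12.3%, against 14.7%).

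This model assumes 1 spread for all generations. With the spread of each generation kept apart, 3 genes differed between F1 and F2 (4.62%, against 3.11% of all genes), 12 between F1 and F3 (18.5%, against 19.4%) and 0 between F2 and F3 (against 0.446%). The 3 genes were KCNA1, KCNK1 and KCNIP1.

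KCNA1 had the largest difference, with 0.63 in F1 against -0.58 in F2, a difference of 1.21 ± 0.31 (SE) and an adjusted p of 0.0119 with a shared spread and 0.0447 with separate ones. KCNK1 had 0.19 against -0.43, a difference of 0.62 ± 0.14 (adjusted p = 0.00530 and 0.0422). KCNIP1 had -0.31 against 0.12, a difference of -0.42 ± 0.11 (adjusted p = 0.00894 and 0.0360). All 3 held without any single animal and with the removed directions as covariates. On the deposited scale KCNIP1 did not pass (adjusted p = 0.153). The median log2 fold change of the PVN neuroendocrine markers also differed in sign, at -0.76 in F1 and 0.36 in F2. The oligodendrocyte median went from 0.19 to -0.69, and the endothelial, mural, microglia and neuron medians also went from positive to negative. The thalamus median went from negative to positive, and the astrocyte median stayed positive. The part of cell content in these differences was not tested. The KCNH5 difference between F1 and F2 was 0.72 ± 0.23, with an adjusted p of 0.0380 with a shared spread and 0.0868 with separate ones.

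Between F1 and F3, KCNH5, KCNMB4, KCNIP1, KCNK3, KCNA2 and KCNJ6 differed under both treatments of the spread and without any single animal. KCNK3 had 0.22 in F1 against -0.15 in F3, a difference of 0.37 ± 0.08 (SE), adjusted p = 0.00216. KCNMB4 had -0.42 against 0.09, a difference of -0.52 ± 0.12 (adjusted p = 0.00337), and KCNH5 0.78 against -0.03, a difference of 0.81 ± 0.22 (adjusted p = 0.0121). KCNJ6 had 0.24 against -0.14, a difference of 0.38 ± 0.11 (adjusted p = 0.0178). On the deposited scale 4 genes differed between F1 and F3, and KCNIP1, KCNJ6 and KCNMB4 were not among them. The median log2 fold change of the PVN neuroendocrine markers was -0.76 in F1 and -0.01 in F3, and their part in these differences was not tested either.

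**Figure D5:**
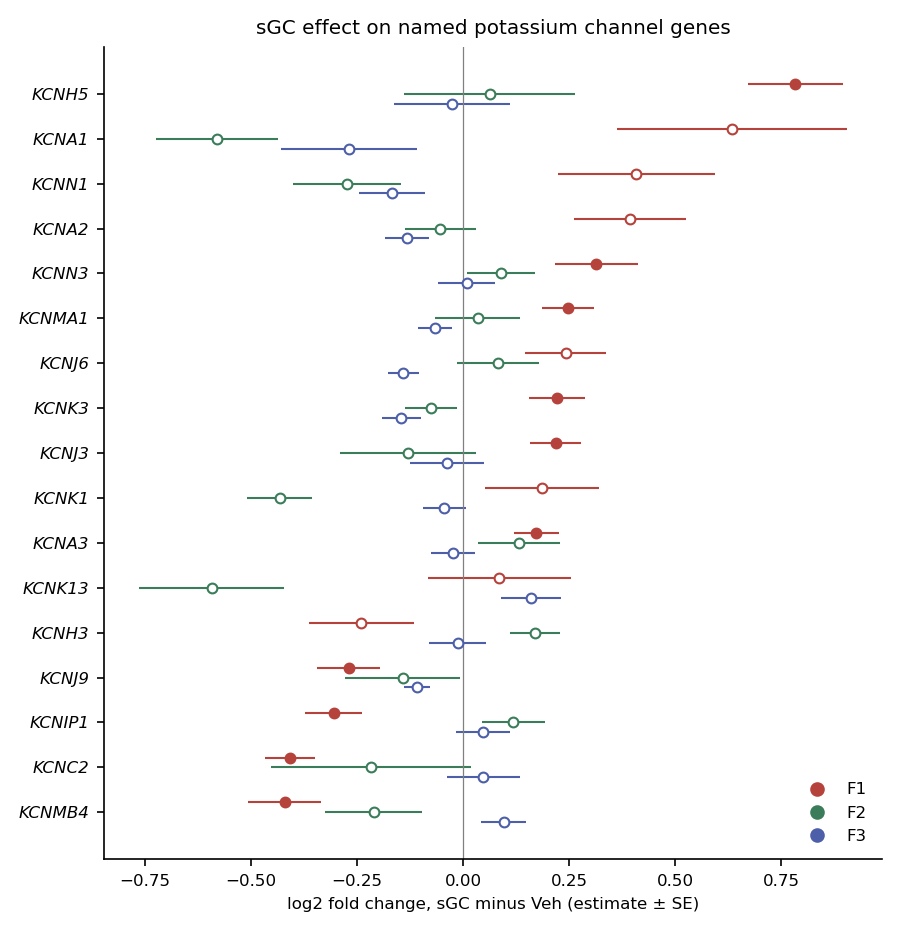
Log2 fold change of sGC minus Veh (horizontal axis, estimate ± SE) for 17 potassium channel genes called in F1 or different between generations in the model with a shared spread, by generation. Filled points passed the adjusted threshold within their generation, which only F1 points did. KCNA1 and KCNK1 lie on opposite sides of 0 in F1 and F2, and KCNH5 is at 0.78 in F1 and near 0 in F2 and F3.

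Of 17 tested channel partners, 1 passed in F1, the scaffold gene DLG1 (0.16 ± 0.05 SE, adjusted p = 0.0390), and none passed in F2 or F3. CNTN2, an axonal adhesion molecule that anchors KCNA channels beside the nodes, had 0.48 ± 0.19 in F1, -0.54 ± 0.10 in F2 and -0.04 ± 0.06 in F3 (adjusted p = 0.106, 0.0597 and 0.851). Its signs in F1 and F2 were those of KCNA1. ABCC8, the sulfonylurea receptor of ATP-sensitive channels, had 0.43 ± 0.15 in F1 (adjusted p = 0.0745). The median over the partners was -0.01 in F1, -0.03 in F2 and 0.004 in F3.

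Of the potassium pumps and cotransporters, 7 were tested in F1 and 8 in F2 and in F3, and none passed in any generation. SLC12A2, which carries potassium into cells with sodium and chloride, had 0.37 ± 0.17 (SE) in F1 and -0.42 ± 0.13 in F2 (adjusted p = 0.158 and 0.224).

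Members with a mean scaled value under 10 were not tested. Among them were KCNA7, KCNK7, KCNMB3 and KCNQ1 in F1, KCNE1 and KCNK6 in F2, and KCNA7, KCNE1 and KCNK6 in F3. The values of these 4 in F1 ran from 1.90 for KCNA7 to 15.0 for KCNK7 in single animals. KCNMB3 was listed in the F1 table alone and KCNAB3 in the F2 and F3 tables alone, where KCNAB3 had 0.03 ± 0.04 (SE) and -0.05 ± 0.04. KCNA4, KCNIP4 and KCNJ13 were not analysed here.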

How the data were processed

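PVN RNA libraries (TruSeq V2, not strand-marking) were aligned by the authors to cavPor3.83 with TopHat2 and counted per gene, and outliers were removed by Cook's distance. The authors normalized the counts by residuals with RUVSeq and rounded them, so the deposited values are a score and not raw counts, and count models were not used. F3 was also corrected between sequencing batches by the authors. The 2 re-sequenced F3 Veh libraries were not analysed here. Here each table was divided by median-of-ratios size factors, because totals still differed in F1 and F2. Genes with a mean of at least 10 were tested on log2(value + 1) with limma 3.58.1 (R 4.3.3; trended eBayes), per generation and over 32 animals. The fits were tested on simulated data. Gene overlaps came from the RefSeq table of mCavPor4.1, in which all 73 symbols matched. Named genes were members past the threshold within or between generations, the 3 smallest p-values where fewer than 3 passed, and a fixed list of major neuronal and glial channels. A few genes that count in the totals are not reported here by name. Members and lists were chosen with earlier results of these data known. Alternatives were the deposited scale, scaling to the total, a pseudocount of 5, a mean of at least 50, no filter, the removed directions (1 in F1, 1 in F2 and 2 in F3) or batch as covariates, and leaving out each animal. Separate spreads, and removed directions in the model over all animals, were added after seeing the data. Depth in reads is not given by these values, so precision is taken from the spread between animals.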

Additional observations from a re-analysis of the deposited data

Results flagged for a closer look

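Among 224 gene and group combinations checked for 1 animal standing apart (Dixon's gap ratio on log2 values), 14 were found, where chance, at about 1 in 20, gives 11.2. In F1 sGC, animal SGM8 was high for KCNC1 (3498, next 2935) and KCNN2 (180, next 144), animal SGM4 was high for KCNK2 (1556, next 679), and SGM16 was low for KCNK10 (232, next 273). In F1 Veh, SGM15 was high for KCNJ9 (3404, next 2783) and SGM7 low for KCNH1 (805, next 901). In F2 Veh, SGM23 was high for KCNK1 (1589, next 1303) and KCNIP1 (1445, next 1215), SGM29 high for KCNAB1 (2202, next 1111) and SGM28 low for KCNJ4 (193, next 235). In F2 sGC, SGM30 was high for KCNN3 (1016, next 828). In F3, Veh animal SGM5 was high for KCNA2 (4706, next 4055), sGC animal SGM18 high for KCNC1 (5027, next 4768) and sGC animal SGM21 of the second batch low for KCNK10 (253, next 298).

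The sGC effect of the following genes differed between generations at an adjusted p under 0.05 in the limma model over all animals, in differences of log2 fold changes. For F1 minus F2 they were 1.21 for KCNA1, 0.45 for KCNA2, -0.41 for KCNH3, 0.72 for KCNH5, -0.42 for KCNIP1, 0.62 for KCNK1, 0.68 for KCNK13, 0.30 for KCNK3 and 0.68 for KCNN1. For F1 minus F3 they were 0.90 for KCNA1, 0.53 for KCNA2, 0.81 for KCNH5, -0.35 for KCNIP1, 0.38 for KCNJ6, 0.37 for KCNK3, 0.31 for KCNMA1, -0.52 for KCNMB4 and 0.57 for KCNN1. The F1 minus F2 differences of KCNA2, KCNH3, KCNH5, KCNK13, KCNK3 and KCNN1, and the F1 minus F3 differences of KCNA1 and KCNN1, did not pass with the spread of each generation kept apart.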

How the results depend on the processing

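No called effect changed sign under any alternative run, and the counts of 0 called genes in F2, in F3 and between F2 and F3 stayed 0 under each. In F1 the 12 calls (8 higher, 4 lower) were 1 (1 and 0) on the deposited scale and 6 (3 and 3) with the removed direction as a covariate, and 12 or 13 with total scaling, a pseudocount of 5, a mean of at least 50 or no filter. The 12 under total scaling held KCNC1 (adjusted p = 0.0374) in place of KCNN3 (0.0526). Leaving out 1 animal gave 5 to 10 calls (2 to 7 higher and 3 to 4 lower), with 5 or fewer higher without Veh animals SGM3, SGM7, SGM11, SGM15 or SGM19 or sGC animals SGM12 or SGM20. The 10 differences between F1 and F2 were 9 on the deposited scale, 5 with the removed directions as covariates, 3 with separate spreads, and 5 to 15 without 1 animal, with 5 without F1 sGC animal SGM8 and 6 without F1 animals SGM4, SGM7 or SGM11 or F2 animals SGM24, SGM26 or SGM29. The 11 differences between F1 and F3 were 4 on the deposited scale, 6 with the removed directions, 12 with separate spreads, and 6 to 13 without 1 animal, with 6 without F1 Veh animal SGM3 and 7 without F1 animals SGM7 or SGM8 or F3 animals SGM5 or SGM21 of the second batch. The cause of these shifts was not tested. Unadjusted counts ran from 17 to 24 in F1, 5 to 13 in F2 and 9 to 16 in F3 without 1 animal. No paired analysis was possible because the animal numbers in the labels differ between the groups. Rounded values limit members with a mean under 10, which were not tested.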
